A study of Homo sapiens with 6 samples.

Results

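Of the genes that desaturate and elongate fatty acids, *FADS1*, *FADS2*, *FADS3*, *SCD*, *ELOVL1*, *ELOVL5* and *ELOVL6* were described in HEK293T cells that over-expressed *USF1*. These 7 genes were chosen by name, and their members on the array were all probesets that the platform annotation gives to one of them, alone or together with a microRNA gene. They are 7 of the 9588 genes with a probeset analysed here, and this gave 15 of the 16569 probesets measured, with 3 probesets each for *FADS1* and *SCD*, 2 each for *FADS3*, *ELOVL1*, *ELOVL5* and *ELOVL6*, and 1 for *FADS2*. The comparison asks which of them change in level when USF1, a transcription factor of the basic helix-loop-helix leucine zipper family, is over-expressed.

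HEK293T is a line of human embryonic kidney origin that expresses the SV40 large T antigen. The cells were transiently transfected with a plasmid carrying the coding region of *USF1* (USF1, 3 arrays) or with the same plasmid without an insert (Empty vector, 3 arrays), and RNA was taken 48 hours later. All cells of both groups therefore shared the line, the transfection and the vector, and the endogenous *USF1* gene was left in place. The sources used here do not say whether the replicates were separate cultures, and p-values therefore measure only how far these arrays spread, a spread that may be technical. They also do not give the share of cells that took up the plasmid. RNA was read from whole cultures, so a change in some cells and a smaller change in all cells cannot be told apart.

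Long fatty acids are built from palmitate by adding carbons from malonyl-CoA and by introducing double bonds. The elongases of the ELOVL family catalyse the first and rate-limiting condensation of each elongation cycle in the endoplasmic reticulum, and each prefers acids of a certain length and saturation. ELOVL6 converts palmitate to stearate, ELOVL5 lengthens mainly polyunsaturated acids, and ELOVL1 makes very long saturated and monounsaturated acids for sphingolipids. SCD, the stearoyl-CoA desaturase, makes oleate and palmitoleate. FADS2 and FADS1 introduce the double bonds that turn the dietary acids linoleate and alpha-linolenate into arachidonate and eicosapentaenoate, while FADS3 acts on sphingoid bases. Kidney cells, like most cells, use these products for membrane lipids. Several of the genes, not each of them, are well known as targets of the sterol regulatory element binding proteins. USF1 binds the E-box, whose palindromic form reads CACGTG.

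The promoters of *ELOVL5* and *ELOVL6* are shown because these were the genes with a probeset that passed the test. Both are RefSeq windows of 300 bases on GRCh38.p14, with 250 bases before and 50 after an annotated start, written 5′ to 3′ on the minus strand of the genome. The *ELOVL5* window lies at chr6:53348901-53349200 and the *ELOVL6* window at chr4:110198566-110198865, and capitals mark the palindromic E-box.
*ELOVL5*: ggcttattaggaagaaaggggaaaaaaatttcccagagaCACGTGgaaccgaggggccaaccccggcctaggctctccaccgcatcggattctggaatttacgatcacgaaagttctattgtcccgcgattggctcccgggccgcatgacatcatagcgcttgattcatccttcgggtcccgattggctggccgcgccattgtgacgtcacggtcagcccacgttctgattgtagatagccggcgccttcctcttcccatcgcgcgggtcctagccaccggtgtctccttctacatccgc
*ELOVL6*: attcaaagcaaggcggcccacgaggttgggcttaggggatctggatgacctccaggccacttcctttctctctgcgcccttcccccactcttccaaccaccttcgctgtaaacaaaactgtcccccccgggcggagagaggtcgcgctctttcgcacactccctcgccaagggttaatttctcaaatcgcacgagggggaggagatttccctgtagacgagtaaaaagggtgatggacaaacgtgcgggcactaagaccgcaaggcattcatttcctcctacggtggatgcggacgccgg
The letters CACGTG were found once in the *ELOVL5* window, starting 211 bases before the start, and not in the *ELOVL6* window. The RefSeq table held 8 windows of the 7 genes, *FADS2* having 2. Among these, the *ELOVL5* window was the single one with CACGTG, which was present in 7.23% of all 34943 promoter windows. The general E-box CANNTG, which includes every CACGTG, was found in 4 of the 8 windows (*FADS1*, 1 of *FADS2*, *ELOVL1* and *ELOVL5*) against 68.7% of all windows, and CCAAT was found in 5 (1 of *FADS2*, *FADS3*, *SCD*, *ELOVL1* and *ELOVL5*) against 34.6%. A form of the sterol regulatory element, TCACNCCAC, was found in none of the 8 and in 1.12% of all windows. Both strands were searched for each motif, and a match or its absence describes only the letters of these windows. Those of *ELOVL6* and *FADS3* did not reach the outermost 5′ end of the annotated gene.

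The 3 *FADS1* probesets are annotated jointly with *MIR1908*, and both *ELOVL1* probesets jointly with *MIR6734*, microRNA genes that lie inside *FADS1* and *ELOVL1* on the same strand. Their mature forms are given because the annotation does not separate host gene and microRNA. Capitals mark the seed, bases 2 to 8, and no seed was shared.
hsa-miR-1908-5p: cGGCGGGGacggcgauugguc
hsa-miR-1908-3p: cCGGCCGCcggcuccgccccg
hsa-miR-6734-5p: uUGAGGGGagaaugagguggaga
hsa-miR-6734-3p: cCCUUCCCucacucuucucucag
No source used here gives the position of the probes, and the values below are named by the host gene.

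On the log2 scale of the deposited values, the array medians were 5.88 to 5.96 in the USF1 group and 5.96 or higher in the Empty vector group. The probeset of *USF1* itself read 4.76, 4.94 and 4.68 on the arrays labelled USF1 and 4.37, 5.08 and 5.14 on the Empty vector arrays (limma adjusted p-value = 0.836). It does not check the labels unless its probes lie in the coding region, which the sources used here do not give. The authors report over-expression of the USF1 protein by western blot. Of 11 marker genes of HEK293T cells, 6 had a probeset of their own (*EYA1*, *INA*, *NEFL*, *NEFM*, *SALL1* and *VIM*), and their summed log2 level was 44.1 to 44.7 on USF1 arrays and 44.8 to 45.8 on Empty vector arrays. At the brightest probeset of each, *EYA1* (−0.41) and *INA* (−0.39) were lower in USF1 cells by the test used below (limma adjusted p-values of 0.0211 and 0.024), and the other 4 genes did not pass. Of all 9 probesets of these genes, 4 passed in either direction, against 4.32% of all probesets as higher and 7.6% as lower. The other 5 of the 11 marker genes, and all 18 markers of fibroblasts, adipocytes, hepatocytes and blood cells, were without such a probeset in the deposited table. Empty vector replicate 1 stood apart from the other Empty vector arrays, with an SD of its log2 differences from each of them of 0.336, against 0.182 between the other two and 0.149 to 0.222 among USF1 arrays. The 5′ minus 3′ log2 difference of the actin control probesets, a sign of RNA quality, was −1.34, −1.04 and −0.52 on Empty vector replicates 1 to 3 and −0.53, −0.68 and −0.49 on USF1 replicates 1 to 3. By actin, Empty vector replicates 1 and 2 were thus below all USF1 arrays, and Empty vector replicate 3 lay among them. The GAPDH control probesets gave −0.582, −0.316 and −0.256 on Empty vector replicates 1 to 3. On USF1 replicates 1 to 3 they gave −0.345, −0.322 and −0.333. By GAPDH, only Empty vector replicate 1 was below all USF1 arrays, and the other Empty vector arrays were above them, so the controls differed on Empty vector replicate 2.

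*ELOVL5* was higher at 208788_at and *ELOVL6* lower at 210868_s_at in USF1 cells than in Empty vector cells, by about 1.3-fold each. These were the only 2 of the 15 probesets that passed the test. The other probeset of each gene did not pass, with log2 differences of 0.10 (*ELOVL5* 215082_at) and −0.25 (*ELOVL6* 204256_at). With 1 array left out, the *ELOVL5* call was kept in 2 of 6 fits and the *ELOVL6* call in none. *FADS1*, *FADS2*, *FADS3* and *SCD* had positive differences at all 9 of their probesets, none of which passed. *ELOVL1* differed by −0.06 and 0.01 on the log2 scale. The test was limma on the log2 values, with p-values adjusted by Benjamini-Hochberg over all 16569 probesets and a threshold of 0.05. Of all probesets, 4.32% passed as higher and 7.6% as lower, so that 1 of 15 in each direction is near the share over the whole array. The median difference of the 15 probesets was 0.21, with 80% of them positive, against a median of −0.06 and 39.2% positive over all probesets. The members were not tested as a set.

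**Figure D1:**
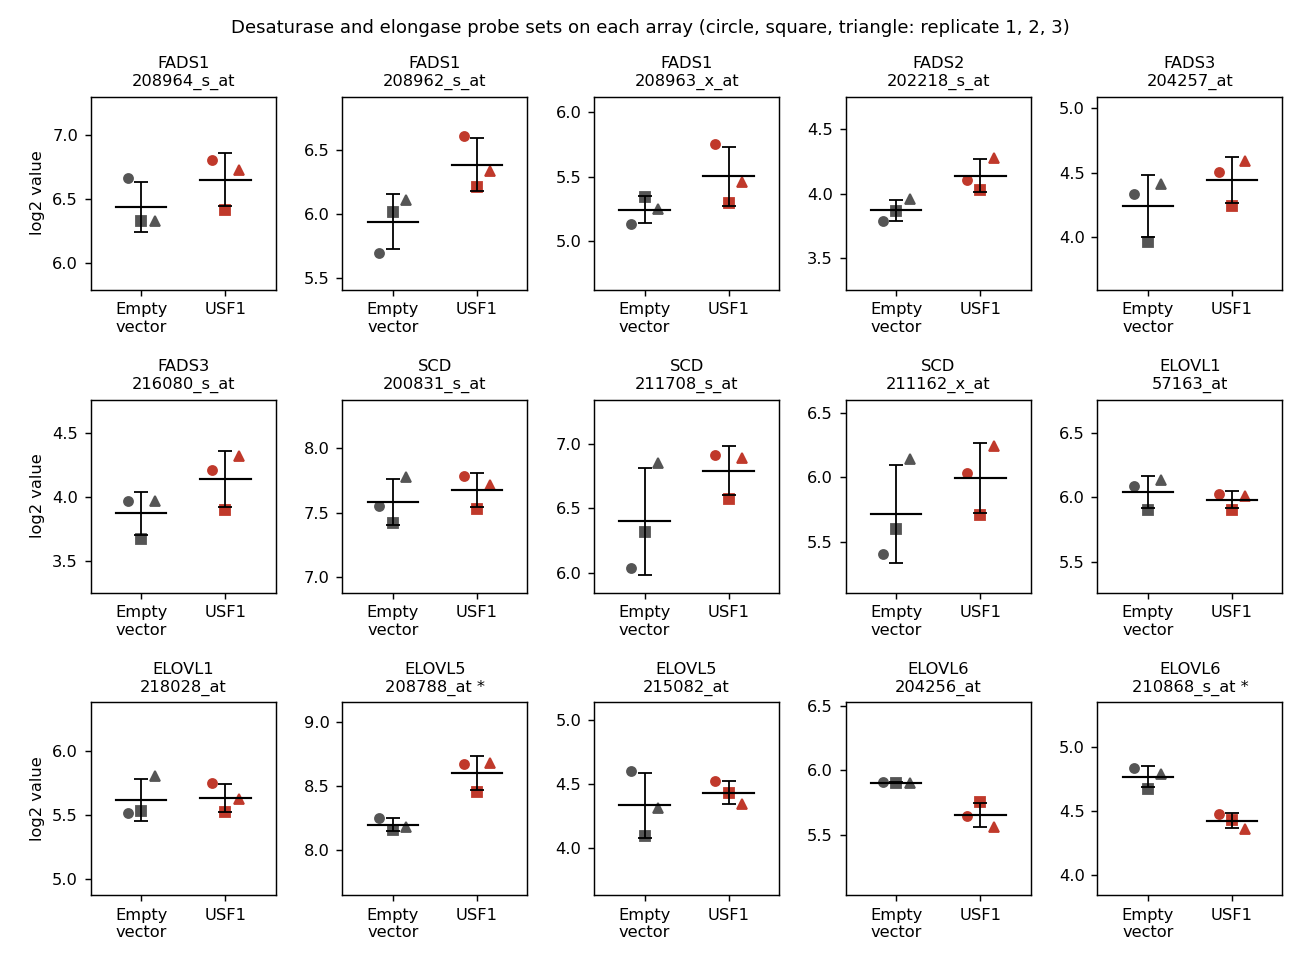
Log2 value of each desaturase and elongase probeset on the 3 Empty vector arrays (grey) and the 3 USF1 arrays (red), with 1 panel per probeset, symbols for replicates, and bars for the mean ± SD. An asterisk marks the 2 probesets that passed the test, *ELOVL5* 208788_at with all USF1 arrays above and *ELOVL6* 210868_s_at with all USF1 arrays below the Empty vector arrays.

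*ELOVL5*, on chromosome 6 (53267404 to 53348950, minus strand, GRCh38.p14), was measured by a bright and a dim probeset. The bright one, 208788_at, with a mean above that of 91.8% of probesets, read 8.67, 8.45 and 8.68 in USF1 replicates 1 to 3 and 8.25, 8.16 and 8.18 in Empty vector replicates 1 to 3. Every USF1 array was above every Empty vector array, a separation in this direction seen for 11.6% of all probesets. The means were 8.60 ± 0.130 and 8.20 ± 0.049 (SD, n = 3), a log2 difference of 0.40 ± 0.095 (SE, 95% interval 0.18 to 0.62) or 1.32-fold, with a limma adjusted p-value of 0.0315. On Empty vector replicate 3, whose actin value lay within the range of the USF1 arrays, *ELOVL5* was at 8.18, as low as on the other Empty vector arrays, and against that array alone the log2 difference was 0.42 (limma adjusted p-value = 0.183). The call was kept without USF1 replicate 2 or without Empty vector replicate 1, and it was lost without any one of the other 4 arrays. Over all 6 of these limma fits, the log2 differences were 0.36 to 0.48 and the adjusted p-values 0.0207 to 0.133.

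The dim *ELOVL5* probeset, 215082_at, had a mean above that of 12.2% of probesets. It read 4.52, 4.43 and 4.35 in USF1 cells and 4.60, 4.10 and 4.31 in Empty vector cells. The groups overlapped, and the log2 difference of 0.10 ± 0.13 (SE) had a 95% interval of −0.20 to 0.40 (limma adjusted p-value = 0.649). Over the 6 arrays the 2 *ELOVL5* probesets correlated with r = 0.391, as a description of arrays that share their processing. The mean of both probesets differed by 0.25 between the groups (limma adjusted p-value = 0.0993 over 9588 genes).

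*ELOVL6*, on chromosome 4 (110045846 to 110199202, minus strand), differed in the opposite direction at both of its probesets. The one that passed, 210868_s_at, was dim, with a mean above that of 17.1% of probesets. It read 4.48, 4.43 and 4.36 in USF1 cells and 4.84, 4.68 and 4.79 in Empty vector cells, so that every USF1 array was below every Empty vector array, as for 24.5% of all probesets. The log2 difference was −0.34 ± 0.087 (SE, 95% interval −0.54 to −0.14) with means of 4.42 ± 0.058 and 4.77 ± 0.082 (SD, n = 3), so that the level in Empty vector cells was 1.27-fold that in USF1 cells (limma adjusted p-value = 0.0388). No removal of a single array kept this call (adjusted p-values of 0.0609 to 0.153), with log2 differences of −0.39 to −0.31. It was also lost under both scalings that remove the negative shift of the whole array, at −0.29 after further quantile normalization (adjusted p-value = 0.0553) and −0.27 after centring on array medians (adjusted p-value = 0.0651).

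The brighter *ELOVL6* probeset, 204256_at, read 5.65, 5.75 and 5.56 in USF1 cells and 5.91, 5.90 and 5.90 in Empty vector cells. The Empty vector arrays were nearly level with each other (SD 0.005, n = 3) and all above the USF1 arrays. Its log2 difference was −0.25 ± 0.086 (SE, 95% interval −0.45 to −0.06), which did not pass after adjustment (limma adjusted p-value = 0.0877). Both *ELOVL6* probesets ranked the arrays much alike, with r = 0.909 over the 6 arrays. Averaged over both, *ELOVL6* was lower by −0.30 ± 0.083 (SE) on the log2 scale in USF1 cells, and it was the only one of the 7 genes to pass on such means (limma adjusted p-value = 0.0319 over 9588 genes). The fit on means was not repeated with other scalings or with an array left out.

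The opposite course of both elongases was also compared within arrays. The log2 value of *ELOVL5* 208788_at minus that of *ELOVL6* 204256_at, the brightest probeset of each gene, was 3.02, 2.70 and 3.12 on USF1 arrays and 2.34, 2.26 and 2.28 on Empty vector arrays. Only the change of this quantity can be read, since probesets differ in how strongly they bind. The means of 2.95 ± 0.221 and 2.29 ± 0.044 (SD, n = 3) differed by 0.65. The groups had to be separate in this quantity, since they were separate in opposite directions at both probesets, so the value describes the size of the divergence and adds no test of it.

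*ELOVL1*, on chromosome 1 (43363401 to 43368011, minus strand), showed no difference beyond the spread of the arrays. The probeset 57163_at read 6.03, 5.91 and 6.01 in USF1 cells and 6.09, 5.90 and 6.13 in Empty vector cells, a log2 difference of −0.06 with a 95% interval of −0.28 to 0.16 (limma adjusted p-value = 0.699). The probeset 218028_at read 5.75, 5.52 and 5.63 in USF1 cells and 5.51, 5.54 and 5.81 in Empty vector cells, a difference of 0.01 with an interval of −0.24 to 0.26 (limma adjusted p-value = 0.946). The signs of these 2 differences changed with the scaling or with the removal of 1 array. The intervals leave room for changes of up to about 0.28 on the log2 scale in either direction.

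**Figure D2:**
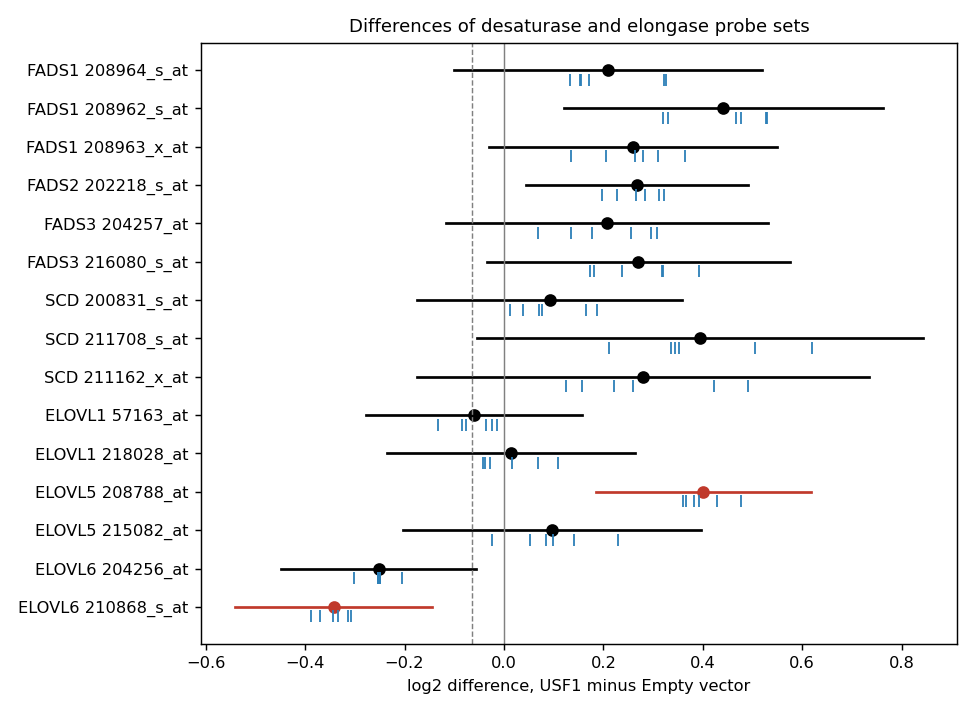
Log2 difference, USF1 minus Empty vector, of the 15 probesets (points, with 95% limma intervals as lines), and the same difference after leaving out each array in turn (blue ticks). The dashed line is the median of all probesets at −0.06, and the 2 probesets that passed, *ELOVL5* 208788_at and *ELOVL6* 210868_s_at, are red.

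*FADS1*, *FADS2* and *FADS3* lie next to each other on chromosome 11 over 92598 bases (GRCh38.p14). *FADS1* (61799627 to 61817003, minus strand) and *FADS2* (61816203 to 61867354, plus strand) are arranged head to head and overlap by 801 bases. *FADS3* (61873526 to 61892224, minus strand) lies tail to tail with *FADS2*, with 6171 bases between their ends. *MIR1908* lies 1763 bases from the start of *FADS1* and 963 bases from that of *FADS2*. The 6 probesets of the 3 genes had log2 differences of 0.21 to 0.44, all positive, with a median of 0.26, and none passed the test. At an unadjusted limma p-value under 0.05, 2 of the 6 were higher, against 9.79% of all probesets, and none lower, against 21.5%.

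*FADS1* had the largest difference of all 15 probesets. At 208962_s_at it read 6.61, 6.21 and 6.33 in USF1 cells and 5.70, 6.01 and 6.11 in Empty vector cells. The groups did not overlap, with Empty vector replicate 3 closest to the USF1 arrays. The difference of 0.44 ± 0.14 (SE, 95% interval 0.12 to 0.76), or 1.36-fold, did not pass (limma adjusted p-value = 0.073). The brightest *FADS1* probeset, 208964_s_at, read 6.80, 6.42 and 6.73 in USF1 cells and 6.66, 6.33 and 6.33 in Empty vector cells, a difference of 0.21 with an interval of −0.10 to 0.52 (limma adjusted p-value = 0.327). The third, 208963_x_at, read 5.75, 5.29 and 5.46 in USF1 cells and 5.13, 5.34 and 5.25 in Empty vector cells, a difference of 0.26 with an interval of −0.03 to 0.55 (limma adjusted p-value = 0.201).

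The *FADS1* probesets differed in how they ranked the Empty vector arrays. Empty vector replicate 1, the array that stood apart and had the lowest actin value, was the lowest of the 3 at 208962_s_at and 208963_x_at and the highest at 208964_s_at. Over the 6 arrays the first of these pairs correlated with r = 0.916, while 208964_s_at correlated with them at 0.397 and 0.569. Leaving out each array in turn gave log2 differences of 0.32 to 0.53 at 208962_s_at, the lowest without Empty vector replicate 1. Averaged over its 3 probesets, *FADS1* differed by 0.30 (limma adjusted p-value = 0.0721).

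*FADS2* was measured by 202218_s_at, which was near the bottom of the array, with a mean above that of 3.54% of probesets. It read 4.11, 4.03 and 4.28 in USF1 cells and 3.79, 3.87 and 3.96 in Empty vector cells. Every USF1 array was above every Empty vector array, with means of 4.14 ± 0.128 and 3.87 ± 0.084 (SD, n = 3). The difference of 0.27 ± 0.098 (SE, 95% interval 0.04 to 0.49) did not pass (limma adjusted p-value = 0.104).

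*FADS3* was dim as well. At 204257_at it read 4.50, 4.24 and 4.59 in USF1 cells and 4.34, 3.96 and 4.41 in Empty vector cells, a difference of 0.21 with an interval of −0.12 to 0.53 (limma adjusted p-value = 0.355). At 216080_s_at it read 4.21, 3.90 and 4.32 in USF1 cells and 3.97, 3.68 and 3.97 in Empty vector cells, a difference of 0.27 with an interval of −0.03 to 0.57 (limma adjusted p-value = 0.205). The groups overlapped at both, because USF1 replicate 2 was below Empty vector replicates 1 and 3. In each group replicate 2 was the lowest array. The 2 probesets had r = 0.958 over the 6 arrays.

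Whether the 3 *FADS* genes changed by different amounts could not be settled with 3 arrays a group. Within arrays, with the brightest probeset of each (for *FADS1* the one with the smallest difference, 208964_s_at), *FADS1* minus *FADS2* differed between the groups by −0.06 (exact two-sided permutation p-value = 0.8), *FADS1* minus *FADS3* by 0.003 (exact p-value = 1) and *FADS2* minus *FADS3* by 0.06 (exact p-value = 0.7), where 0.1 is the smallest p-value that this design allows and each adjusted p-value is 1 over the 4 gene pairs computed. Of the 5 probesets of the genes around them, 4 had a negative difference, against 60.8% of all probesets. *FEN1*, a flap endonuclease of DNA replication, had −0.19 and −0.27 at its 2 probesets (limma adjusted p-values of 0.155 and 0.0736), and *TMEM258*, a subunit of the oligosaccharyltransferase complex, had −0.14. *RAB3IL1*, a guanine nucleotide exchange factor, had −0.14. *MYRF*, a membrane-bound transcription factor, had 0.10 at a very dim probeset, with a mean above that of 1.16% of probesets. None of these 5 probesets passed, and the difference between the *FADS* genes and their neighbours was not tested.

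**Figure D3:**
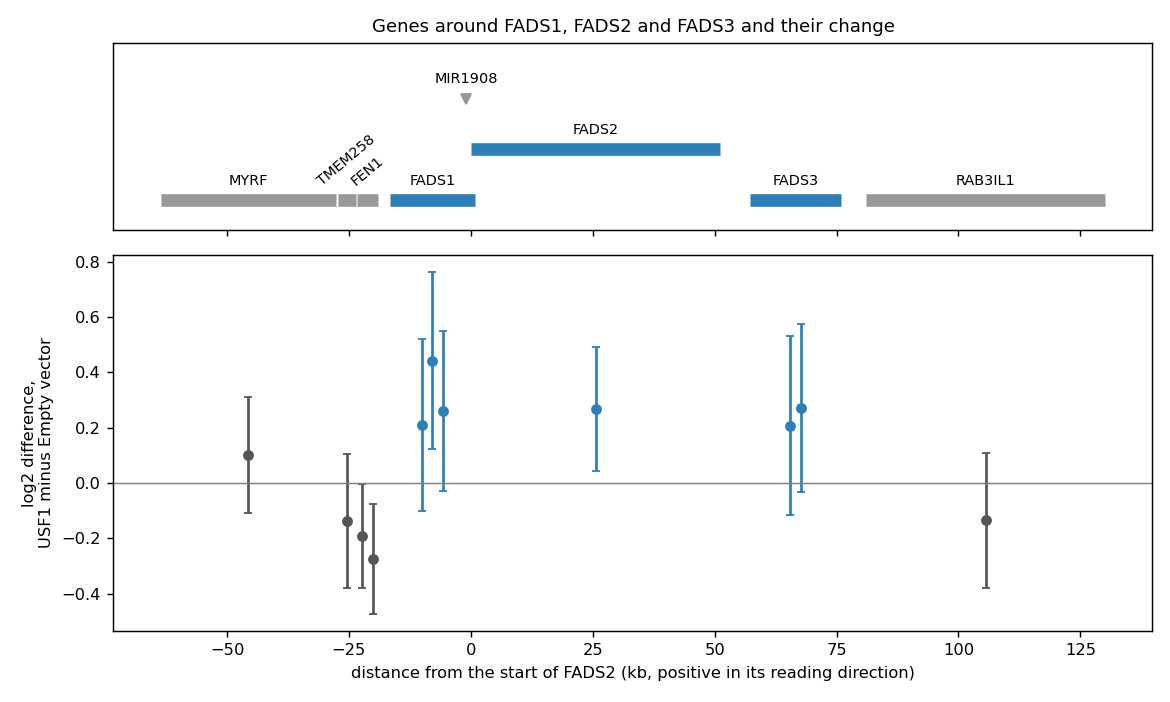
Genes around *FADS1*, *FADS2* and *FADS3* (top; distance in kb from the start of *FADS2*, microRNA as a triangle) and the log2 difference, USF1 minus Empty vector, of their probesets with 95% limma intervals (bottom; probesets of a gene are set side by side near its middle, not at probe positions). The 6 *FADS* points lie between 0.21 and 0.44. Of the 5 points of neighbouring genes, 4 lie below 0, against 60.8% of all probesets.

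*SCD*, on chromosome 10 (100347233 to 100364826, plus strand), had positive differences at its 3 probesets, of which none passed. The brightest, 200831_s_at, read 7.78, 7.53 and 7.72 in USF1 cells and 7.55, 7.42 and 7.77 in Empty vector cells, a difference of 0.09 with an interval of −0.17 to 0.36 (limma adjusted p-value = 0.628). The probeset 211708_s_at read 6.91, 6.57 and 6.89 in USF1 cells and 6.03, 6.31 and 6.85 in Empty vector cells. Empty vector replicate 3 was level with the USF1 arrays there while the other Empty vector arrays were below them. The difference of 0.39 ± 0.20 (SE, 95% interval −0.05 to 0.84) did not pass (limma adjusted p-value = 0.209), but it was 0.62 and passed without Empty vector replicate 3 (adjusted p-value = 0.0489), and was 0.21 without Empty vector replicate 1. The probeset 211162_x_at read 6.04, 5.71 and 6.24 in USF1 cells and 5.41, 5.60 and 6.14 in Empty vector cells, a difference of 0.28 with an interval of −0.18 to 0.73 (limma adjusted p-value = 0.373).

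The 3 arrays with the lowest 5′ minus 3′ actin difference were Empty vector replicates 1 and 2 and USF1 replicate 2. They had the 3 lowest values of the 3 *SCD* probesets, *FADS3* 204257_at and *ELOVL1* 218028_at, as for 3.63% of all probesets. The order within these arrays was that of actin at *SCD* 211708_s_at and 211162_x_at, but not at the others. By the GAPDH control, Empty vector replicate 2 was above all USF1 arrays, and USF1 replicate 2 was the highest of its group. Against Empty vector replicate 3 alone, whose actin value was within the USF1 range, the log2 differences of the 3 *SCD* probesets were −0.10, −0.06 and −0.14, of the opposite sign to those with all arrays. In the same comparison *ELOVL1* 218028_at turned to −0.17 and *FADS3* 204257_at went from 0.21 to 0.03. The part of RNA quality in these differences was not tested. The other 5 *FADS* probesets had positive differences of 0.17 to 0.32 there, and both *ELOVL6* probesets a negative one, at −0.25 and −0.36, without passing the test, which rests there on the assumption that the lone array varies like the USF1 arrays.

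**Figure D4:**
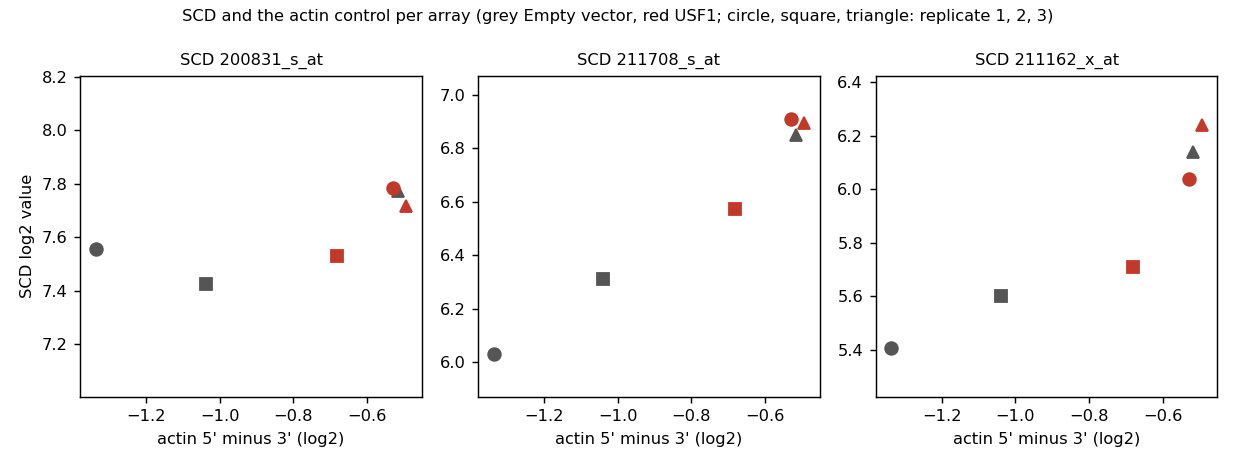
Log2 value of each *SCD* probeset against the 5′ minus 3′ log2 difference of the actin control on the same array (Empty vector grey, USF1 red, symbols for replicates). The arrays at −1.34, −1.04 and −0.68 hold the 3 lowest *SCD* values in every panel, and Empty vector replicate 3 lies among the USF1 arrays.

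Other genes of the pathway were taken from a list of 48 genes, of which 33 had a probeset of their own (58 probesets in all). Of these 58, none was higher and 3 were lower by the test, against 4.32% and 7.6% of all probesets. At an unadjusted limma p-value under 0.05, 2 were higher and 14 lower, against 9.79% and 21.5%, so that the lower calls were near the share over the whole array. The median difference was −0.11, below the −0.06 of all probesets. The 3 that passed belonged to the supply of malonyl-CoA, to the electron donors of desaturases and to the regulators of desaturase transcription.

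*ACACA*, the acetyl-CoA carboxylase that makes the malonyl-CoA used in each elongation, fell at 212186_at. It read 6.65, 6.61 and 6.40 in USF1 cells and 7.10, 6.98 and 6.95 in Empty vector cells, a log2 difference of −0.46 ± 0.098 (SE, limma adjusted p-value = 0.0231). Its other probeset differed by −0.40 (limma adjusted p-value = 0.131), with USF1 replicate 2 inside the Empty vector range. *ACACB*, the mitochondrial form of this enzyme, had −0.29 and −0.51, with neither past the threshold (limma adjusted p-values of 0.0899 and 0.0668). All USF1 arrays were below the Empty vector arrays at both probesets, as for 24.5% of all probesets. Both were dim, with means above those of 6.92% and 5.66% of probesets. *ACLY*, which makes cytosolic acetyl-CoA, had −0.02 to 0.11 at its 3 probesets.

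*CYB5R4*, a cytochrome b5 reductase, fell at 219079_at, from 5.92, 5.86 and 5.86 in Empty vector cells to 5.55, 5.59 and 5.36 in USF1 cells. The log2 difference was −0.38 ± 0.093 (SE, limma adjusted p-value = 0.0354). The 10 probesets of the electron donors as a group ranged from −0.38 to 0.12 with a median of −0.06. *MBTPS2*, the site-2 protease that releases the sterol regulatory element binding proteins from the membrane, fell at 226760_at, from 8.35, 8.38 and 8.26 in Empty vector cells to 8.04, 7.97 and 7.96 in USF1 cells. The log2 difference was −0.34 ± 0.083 (SE, limma adjusted p-value = 0.0357), and the other *MBTPS2* probeset differed by −0.31 (limma adjusted p-value = 0.0882). Of the 21 probesets of regulators, which stand for 12 genes and are in part repeats of one gene, 19 had a negative difference, against 60.8% of all probesets, with a median of −0.21. *SREBF1*, which encodes the sterol regulatory element binding protein that acts on fatty acid genes, was 1 of the other 2, at 0.27 with overlapping groups (limma adjusted p-value = 0.26).

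The other desaturases and elongases held no probeset that passed among 7, with differences of −0.22 to 0.28 and a median of 0.01. *DEGS1*, the dihydroceramide desaturase, read 9.37, 9.36 and 9.35 in USF1 cells and 9.03, 9.20 and 9.01 in Empty vector cells at 209250_at, a difference of 0.28 that did not pass (limma adjusted p-value = 0.0702). Its other probeset, 207431_s_at, differed by 0.13 with overlapping groups (limma adjusted p-value = 0.374). The later enzymes of the elongation cycle, which reduce and dehydrate the condensed acid, had differences of −0.07 to 0.23 at 8 probesets. The 2 largest were those of the dehydratase *HACD3*, at which Empty vector replicate 1 was low by itself, at 8.78 and 8.60 against 9.43 to 9.73 on the other 5 arrays.

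**Figure D5:**
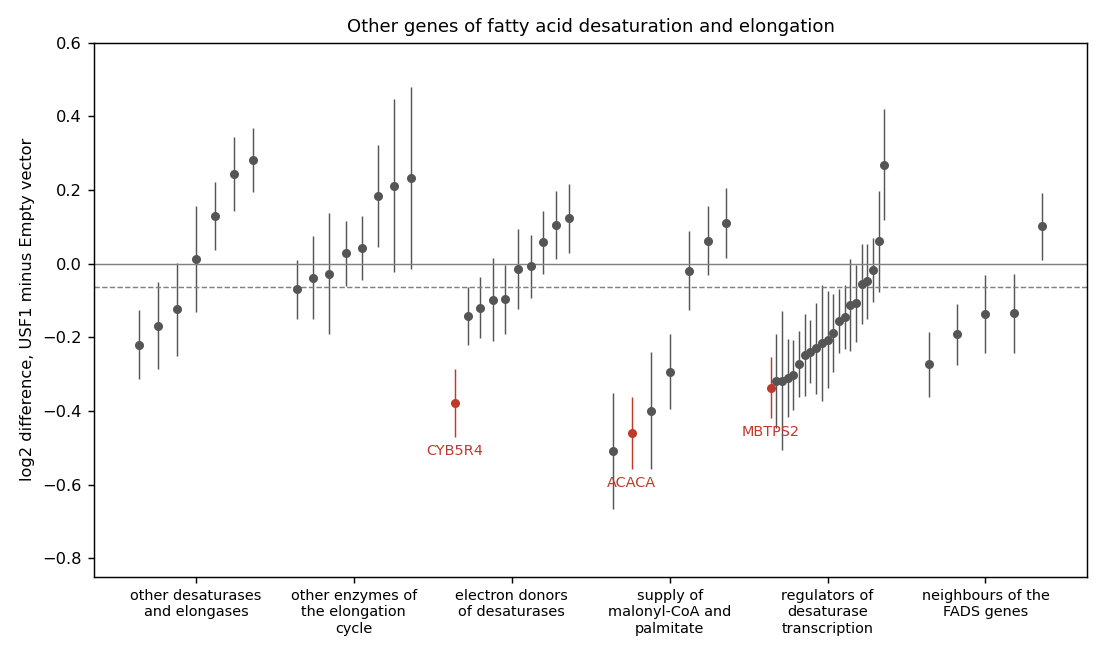
Log2 difference, USF1 minus Empty vector, of 58 probesets of other genes in the pathway, ordered by size within 6 groups (points, with bars of 1 SE). The dashed line is the median of all probesets, and the 3 probesets that passed, all lower in USF1 cells, are red and named; 19 of the 21 regulator points lie below 0.

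The probesets whose 6 values most resembled those of *FADS1* 208962_s_at, the member with the largest difference, were those of *C19orf12* (r = 0.992), *RNF24* (r = 0.986) and *TAX1BP1* (r = 0.985). These are the highest of many correlations over only 6 arrays of 2 groups, and none of the 3 probesets passed the test.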

How the data were processed

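RNA of 6 HEK293T samples, 3 per group, was measured on Affymetrix arrays, and groups were taken from the sample titles. The deposited values are log2 RMA expression values, which the authors made in R 2.8.0 with background subtraction and quantile normalization, after masking probes with a wrong target or several targets. They then left out probesets that kept few probes or were absent on most arrays and removed batch effects with ComBat. The batches of these arrays were not given in the sources used here. Probesets removed by these filters are not analysed here, and batch correction done before the test can make p-values too small. For arrays, their number limits the precision.

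Differences were fitted with lmFit and eBayes of limma 3.58.1 in R 4.3.3, with the group as the only term, over all 16569 probesets and thus also the 33 controls (prior of 4.53 degrees of freedom), with Benjamini-Hochberg adjustment. The probe annotation gave 1 gene for 15099 probesets, several for 570 and none for 900, and 10281 of its 10289 gene identifiers matched the RefSeq table. Pairs of *FADS* genes were compared by exact permutation tests. The fit was tested on simulated data with independent normal noise. Those data held no array that stood apart, no difference in RNA quality and no batch correction, so these were not covered. Sequences and gene positions are from RefSeq.

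The members, gene lists, tests and alternatives were chosen with earlier results of these data known. All member probesets are reported. Of the wider list, genes with a probeset that passed, the neighbours of the *FADS* genes and group ranges are reported, and for likeness the 3 most correlated named probesets. *DEGS1*, *ACACB*, *ACLY*, *SREBF1* and *HACD3* were named after their values were seen. Alternatives were the methods' t-test, other limma settings, scaling, thresholds, a filter on dim probesets, the replicate block, other choices of probeset per gene, and leaving out each array. Leaving out both Empty vector arrays with a low actin value was chosen after seeing the data.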

Additional observations from a re-analysis of the deposited data

How the results depend on the processing

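The *ELOVL5* call at 208788_at held under 7 of 9 alternatives other than leaving out arrays, and the *ELOVL6* call at 210868_s_at under 3 of 8. Over all probesets, 1974 passed. The counts were 1 by the methods' t-test with unequal variances after adjustment and 3419 at an unadjusted 0.05, 160 and 4265 with equal variances, 3688 with array weights, 3756 and 352 at adjusted thresholds of 0.1 and 0.01, 369 (without USF1 replicate 3) to 2222 (without USF1 replicate 2) when leaving out each array, and 277 without both Empty vector arrays of low actin value. The share of higher calls was 36.2%, but 50.4% after further quantile normalization and 56.1% after centring on array medians. Of the 15 members, 2 passed. This became 0 and 4 by the t-test with unequal variances (adjusted and unadjusted), 0 and 4 with equal variances, 1 with a trend in the prior variance, 4 with array weights, 1 after quantile normalization, 1 after centring, 1 when the dimmest 25% of probesets were left out (10 members remaining), 4 and 0 at thresholds of 0.1 and 0.01, 0 to 1 when leaving out each array, and 0 without both Empty vector arrays of low actin value. Of the 7 genes at their brightest probeset, 1 passed. This became 0 and 3 by either t-test, 2 with array weights, 2 and 0 at 0.1 and 0.01, 0 to 1 when leaving out each array, and 0 without both arrays, and taking the dimmest probeset or the mean over probesets gave 1, *ELOVL6* in place of *ELOVL5*. Of the 58 probesets of the wider list, 3 passed. This became 0 and 9 by the t-test with unequal variances, 0 and 13 with equal variances, 5 with a trend, 6 with array weights, 11 and 0 at 0.1 and 0.01, 0 to 3 when leaving out each array, 0 without both arrays, and 2 after centring, of which 1 was higher.

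Differences that changed sign were *ELOVL1* 57163_at, at 0.0060 after quantile normalization and 0.0074 after centring, *ELOVL1* 218028_at, at −0.042 to 0.108 when leaving out each array (below 0 without USF1 replicate 1, at −0.038 without Empty vector replicate 1 and at −0.027 without Empty vector replicate 2), and *ELOVL5* 215082_at, at −0.023 (without Empty vector replicate 2) to 0.23. Without both Empty vector arrays of low actin value, *SCD* turned to −0.098, −0.057 and −0.145 and *ELOVL1* 218028_at to −0.17. The cause was not tested. *FADS1* 208962_s_at passed an adjusted threshold of 0.05 only with array weights among these alternatives (limma adjusted p-value = 0.0321). The correlations of deviations between arrays of the same replicate number were 0.0958, 0.246 and 0.129, so the numbers were not taken to pair the arrays. With the replicate block, 2875 probesets passed over the whole array, 2 members and 5 of the wider list. Every array correlated best with its own number, a hint from the data and not the design. Values near the bottom of the array (*FADS2*, *FADS3* and the dim probesets of *ELOVL5* and *ELOVL6*) are limited by their low signal. The same holds for *ACACB*, *SREBF1*, *MYRF* and *RAB3IL1* of the wider list.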
